A study of Arabidopsis thaliana with 12 samples.

Results

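Plants join small molecules to glutathione or to a sugar, and the 64 genes described here encode enzymes that do so. They are the 13 genes whose symbol begins with GSTU or GSTF (glutathione transferases, called GST genes below) and the 51 whose symbol begins with UGT followed by a digit (UDP-sugar glycosyltransferases, called UGT genes below). They were taken by symbol from the gene annotation of the array, as probe sets paired with a single gene. This gave 69 probe sets, 13 for GST and 56 for UGT genes, of 16722 with a single gene (16548 genes) and 38408 on the array. The gene table used for names lists 39 GST and 58 UGT symbols by the same rule. All 64 genes were tested, with no filter on signal.

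Pooled whole Arabidopsis thaliana seedlings of ecotype Col-0 gave the RNA, and each of 12 samples was read on 1 Affymetrix Gene 1.0 ST array. The 4 groups of 3 arrays were wild type (WT) after 5 days in darkness, WT after the same 5 days and 1 h of white light, rb10 after 5 days in darkness, and rb10 after the same 5 days and 1 h of white light. All seedlings were grown on MS medium at reduced strength that held no sucrose. The labels do not explain rb10. Knowledge of the study gives it as a RAPTOR1B mutant. RAPTOR1B brings substrates to TOR, a kinase that ties growth to nutrients, and no further allele or treatment is given for any group. The labels call the 3 arrays of a group biological replicates and do not say which seedlings or sowings the pools came from, so a p-value here reflects only how these samples vary, which may be technical.

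Glutathione transferases of the tau (GSTU) and phi (GSTF) classes are the large plant classes of this superfamily. They attach glutathione to reactive compounds such as herbicides and products of oxidation, which are then moved into the vacuole, and some act as carriers or partners of other proteins. UDP-sugar glycosyltransferases move a sugar from a UDP-sugar to an acceptor. Their acceptors include flavonoids, lignin precursors, hormones such as abscisic acid, cytokinin, auxin, salicylic acid and jasmonate derivatives, and foreign compounds. In an etiolated seedling the first light starts greening and flavonoid synthesis, in which several UGT enzymes add the sugars.

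The values are log2 signals, on which a difference of 1 is a 2-fold change. Changes are differences between group means with the standard error (SE) of one limma fit over all 12 arrays, n = 3 arrays per group, and a gene is called at an adjusted p under 0.05 (Benjamini-Hochberg over the 17481 probe sets tested, within each comparison). The number of arrays limits the precision. RAPTOR1 (AT3G08850, also called RAPTOR1B) checks the genotype labels, although where its probes lie relative to the mutation is not given in the sources used here. It read 11.84, 11.66 and 11.63 in WT dark, 11.62, 11.69 and 11.58 in WT light and 10.90, 10.89 and 11.13 in rb10 light. In rb10 dark it read 11.06 and 11.08 on replicates 1 and 2 but 11.60 on the array labelled rb10 dark replicate 3, which lies inside the WT light values. Across all tested probe sets that array correlated with the WT dark arrays at a mean r of 0.9909 and with the other rb10 dark arrays at 0.9796. It was kept under its label, and results that rest on rb10 in the dark are given with and without it. Leaving it out leaves 2 rb10 dark arrays, which are then assumed to vary like the other groups. Of the markers fixed for the tissues, 1 of 10 root and 3 of 10 shoot markers were measured. EXPA7, a root hair expansin, read from 4.85 to 6.14 over the 12 arrays and was not called in any comparison. RCA, Rubisco activase, read from 9.59 to 10.69, rose with light in WT (0.51) and rb10 (0.72) and was higher in rb10 after light (0.48). The stomatal lineage gene SPCH (5.93 to 7.63) fell with light in WT (-0.93) and was higher in rb10 after light (1.24). Its light effects differed (1.37), a call lost in 10 of the 12 fits that left out 1 array, rb10 dark replicate 3 among them. FMA (FAMA, 5.75 to 8.09) changed with light by -1.22 in WT, not called, and fell by 1.30 in rb10, a call also lost in 10 of those fits, rb10 dark replicate 3 among them. The fall of SPCH and the rise of RCA in WT were each lost in 4 of them, and RCA after light in 1 of them and with equal array medians (0.33). The part of these markers in the results was not tested.

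The 64 genes had mean log2 signals from 2.58 to 12.17. Among the UGT genes the highest mean over 12 arrays was that of UGT87A2 (12.17), which acts on flowering time, followed by UGT76B1 (12.12), which glucosylates isoleucic and salicylic acids, and UGT73B1 (11.52). The lowest were UGT71B8 (4.06), UGT84A4 (4.01) and UGT84B1 (2.58), the last of which glucosylates auxin. Among the GST genes GSTU27 (10.71), GSTU26 (9.25) and GSTU16 (9.21) were highest and GSTU23 (4.70), GSTU21 (4.61) and GSTU15 (3.88) lowest. Signals of different probe sets do not rank transcripts, since probes differ in how they bind. In WT dark the median was 7.15 over the GST genes and 7.65 over the UGT genes, against 7.10 over all tested probe sets. Of the genes with the highest signals, UGT76B1 stayed between 11.98 and 12.25 on the 12 arrays, and GSTU27 between 10.51 and 10.94.

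**Figure D1:**
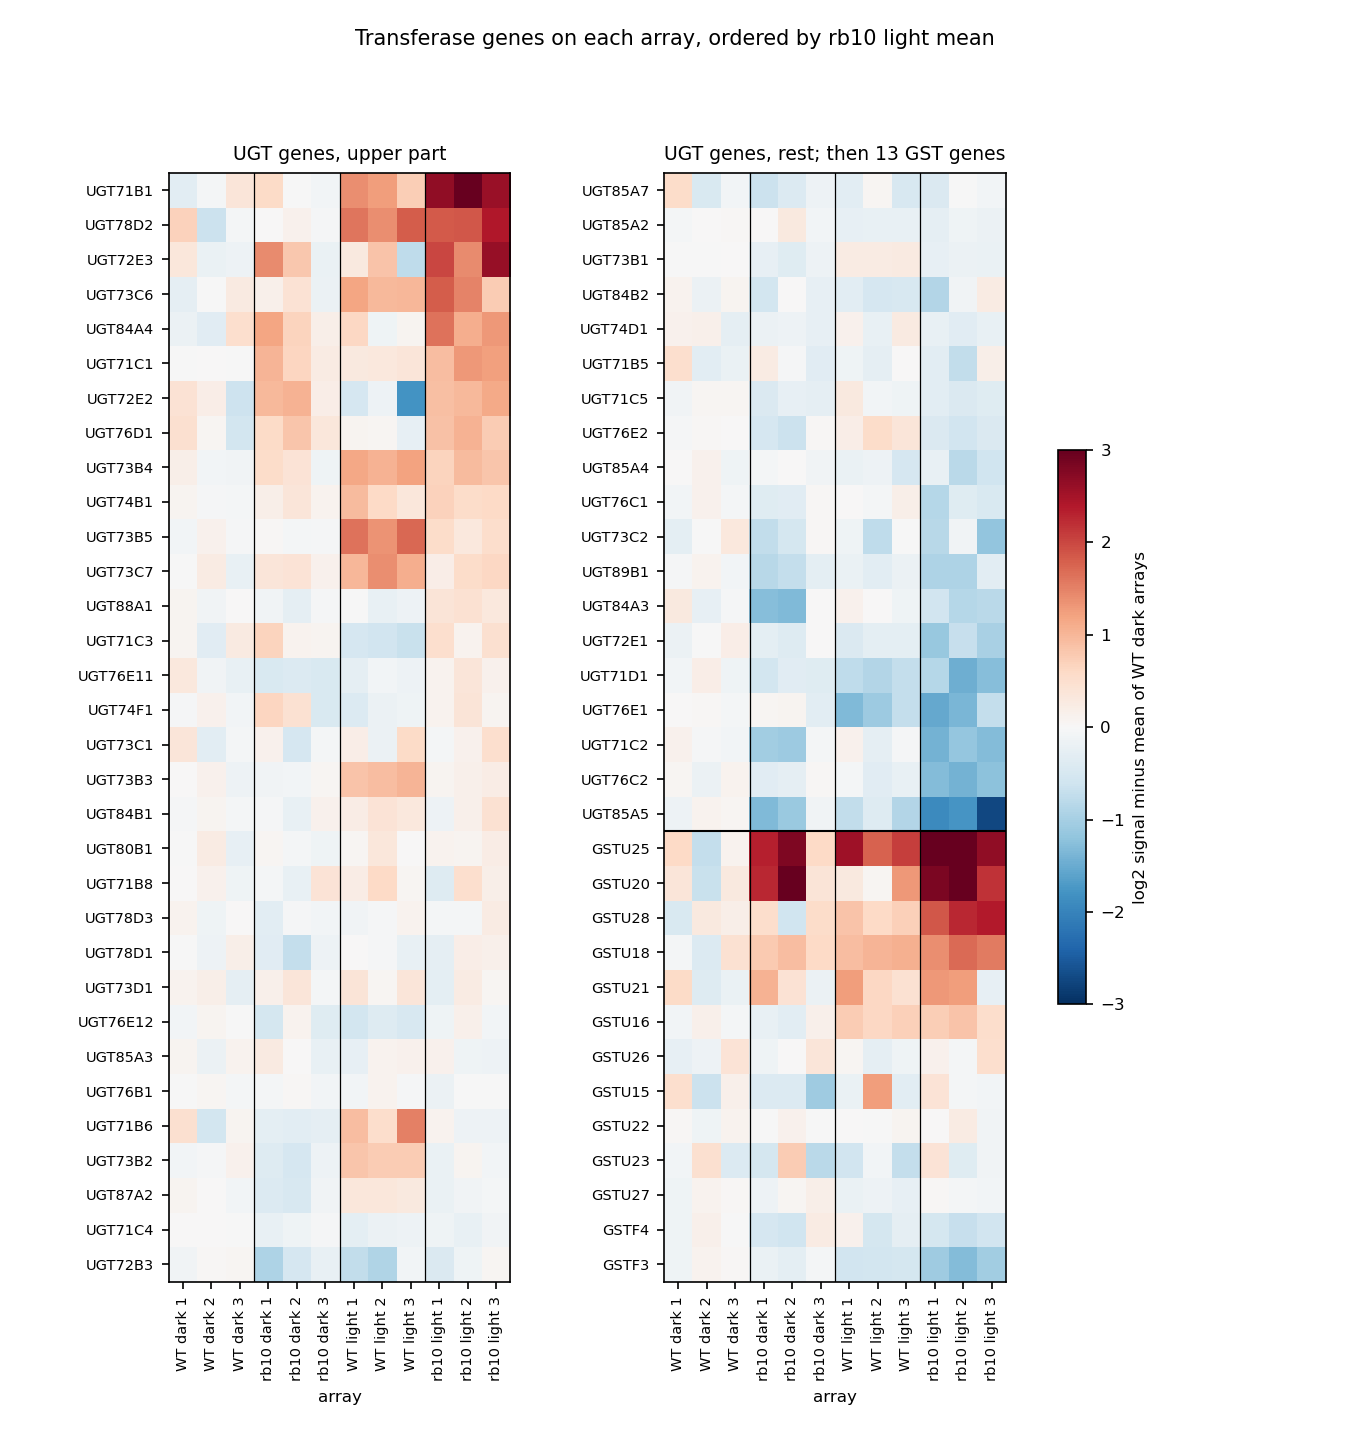
Heat map of the 64 genes (rows) on the 12 arrays (columns), as log2 signal minus the mean of the WT dark arrays. Colours are cut at 3 in either direction. GSTU25 and GSTU20 are high on rb10 dark replicates 1 and 2 and on the rb10 light arrays, but not on rb10 dark replicate 3. GSTU25 is also high on the WT light arrays (6.59 to 7.35, against a WT dark mean of 4.82).

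The first comparison asked what 1 h of light did to these genes in WT. Of the 13 GST genes 3 rose, 1 fell and 9 were not called, and of the 51 UGT genes 9 rose, 2 fell and 40 were not called. Called were thus 30.8% of GST and 21.6% of UGT genes, where 6.89% of all tested probe sets were called (4.62% up and 2.27% down). The median change was 0.25 over the GST genes and 0.00 over the UGT genes, against -0.06 over all tested probe sets. In pooled seedlings fewer cells that hold a transcript and less of it per cell cannot be told apart.

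The largest rise in WT was that of GSTU25, whose enzyme can conjugate the explosive TNT. Its log2 signal was 5.41, 4.10 and 4.93 in the dark and 7.35, 6.59 and 6.88 after light, so that the groups did not overlap, and it rose by 2.13 (SE 0.51, adjusted p = 0.0299). GSTU18 rose by 1.00 (SE 0.19, adjusted p = 0.00841), from 7.08, 6.75 and 7.61 to 8.07, 8.16 and 8.22. GSTU16 rose by 0.70 (SE 0.14, adjusted p = 0.0105), from 8.81, 9.03 and 8.83 to 9.65, 9.52 and 9.61. GSTF3, of the phi class, fell by 0.55 (SE 0.11, adjusted p = 0.0107), from 8.47, 8.71 and 8.63 to 8.02, 8.05 and 8.08. In these called genes the dark and the light arrays did not overlap, which the call itself makes likely. Of all 13 GST genes 6 had groups that did not overlap, and of all tested probe sets 27.6%. GSTU28 changed by 0.72 (SE 0.30) without passing the test.

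Among the UGT genes, UGT78D2 rose most. It encodes the enzyme that adds glucose to the 3-position of flavonoids, and it read 5.57, 4.23 and 4.82 in WT dark and 6.47, 6.27 and 6.69 in WT light, a rise of 1.60 (SE 0.28, adjusted p = 0.00517). The other measured genes of its group, UGT78D1 (which adds rhamnose to flavonols) and UGT78D3 (which adds arabinose), changed by -0.08 (SE 0.17) and -0.01 (SE 0.13) and were not called. Of the 10 measured genes numbered UGT73, a group picked out after the values were seen, 6 rose and none fell (median 0.86). UGT73B5 read 8.54, 8.74 and 8.57 in the dark and 10.24, 9.96 and 10.34 after light, a rise of 1.56 (SE 0.12, adjusted p = 1.46e-05). UGT73B3 rose by 0.93 (SE 0.11, adjusted p = 0.000305), from 9.75, 9.87 and 9.58 to 10.58, 10.65 and 10.77. Both genes are known from the response to pathogens. UGT73B4 rose by 1.13 (SE 0.17) and UGT73B2, which glucosylates flavonoids, by 0.79 (SE 0.12). UGT73C7, which acts on phenylpropanoid acids, rose by 1.16 (SE 0.17), and UGT73C6, which adds glucose to the 7-position of flavonols, by 1.05 (SE 0.26). The 4 not called were UGT73B1 (0.25), UGT73C1 (0.20), UGT73C2 (-0.29) and UGT73D1 (0.27).

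Outside that group UGT71B1 rose by 1.13 (SE 0.25, adjusted p = 0.0196) and UGT74B1, the S-glucosyltransferase of glucosinolate synthesis, by 0.63 (SE 0.15, adjusted p = 0.0239). UGT76E1, which acts on hydroxylated jasmonate, changed by -1.04 (SE 0.22, adjusted p = 0.0128), from 6.11, 6.15 and 6.04 to 4.78, 5.01 and 5.39. UGT71D1 changed by -0.79 (SE 0.15, adjusted p = 0.00871). These 2 were the UGT genes that fell.

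Each WT array mattered for some of these calls. The GST count was 2 without WT dark replicate 2, and the UGT count was 7 without WT light replicate 1. The call of GSTU25 was lost without WT dark replicate 2 or 3 or without any 1 of the WT light arrays (change 1.77 to 2.30, adjusted p = 0.0524 to 0.114), and that of GSTF3 without WT dark replicate 2 (-0.50, adjusted p = 0.0513). UGT71B1 (0.97 to 1.10, adjusted p = 0.0663 to 0.085) and UGT73C6 (0.92 to 1.09, adjusted p = 0.071 to 0.115) lost theirs without WT dark replicate 1 or 2 or WT light replicate 1 or 2, and UGT73C6 also without WT light replicate 3. UGT74B1 lost its call without WT dark replicate 2 or 3 or WT light replicate 1 or 2 (0.47 to 0.65, adjusted p = 0.0613 to 0.0821), and UGT76E1 without WT light replicate 1 (-0.90, adjusted p = 0.061). GSTU16, GSTU18, UGT71D1, UGT73B2, UGT73B3, UGT73B4, UGT73B5, UGT73C7 and UGT78D2 were called in all 12 fits that left out 1 array. The doubted array, rb10 dark replicate 3, enters this comparison through the shared spread, and without it the counts were again 4 and 11, where 8.78% of all tested probe sets were called (5.3% up and 3.47% down).

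**Figure D2:**
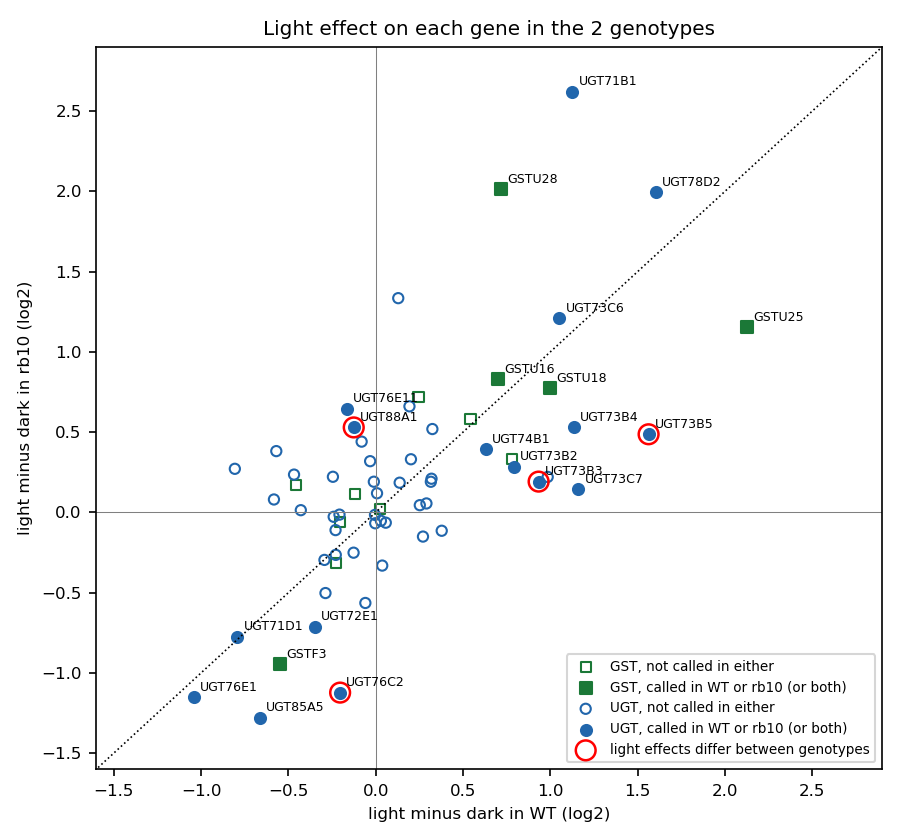
Change in log2 signal with 1 h of light in WT (horizontal) and in rb10 (vertical), 1 point per gene, squares for 13 GST and circles for 51 UGT genes. Filled points were called in at least 1 genotype, red rings mark the 4 genes whose light effects differed between genotypes, and the dotted line is equality. UGT73B5 (1.56 in WT, 0.49 in rb10) and UGT76C2 (-0.20 and -1.12) lie below the line and UGT88A1 (-0.13 and 0.53) above it, while UGT78D2 (1.60 and 1.99) is high in both.

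The same question was put to rb10 in the second comparison. Of the 13 GST genes 3 rose and 1 fell, and of the 51 UGT genes 6 rose and 5 fell, or 30.8% and 21.6%, where 7.17% of all tested probe sets were called (3.42% up and 3.75% down). With that doubted array, rb10 dark replicate 3, left out the counts were 2 up and 1 down for GST and 4 up and 4 down for UGT genes, where 6.34% of all tested probe sets were called (3.17% up and 3.16% down). The median change over the GST genes was 0.33, but 0.03 without that array, and over the UGT genes 0.14 either way. Over all tested probe sets it was -0.03, and -0.02 without that array.

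GSTU28 rose most among the GST genes. It read 7.47 and 6.34 on rb10 dark replicates 1 and 2, 7.50 on replicate 3, and 8.82, 9.21 and 9.33 after light, a rise of 2.01 (SE 0.30, adjusted p = 0.00216), or 2.21 (SE 0.33) without rb10 dark replicate 3. All light arrays lay above all dark arrays. GSTU16 rose by 0.83 (SE 0.14, adjusted p = 0.00434) and GSTF3 fell by 0.95 (SE 0.11, adjusted p = 0.000408), both also called without that array (0.97 and -0.89). GSTU18 rose by 0.77 (SE 0.19, adjusted p = 0.0347). Without that array it was not called (0.69, SE 0.21), nor in 9 of the 12 fits that left out 1 array, that one included (change 0.69 to 0.85, adjusted p = 0.0505 to 0.125). It held only without WT dark replicate 2 or 3 or rb10 dark replicate 2. GSTU25, which rose in WT, read 7.16 and 7.61 on rb10 dark replicates 1 and 2 and 7.996, 8.17 and 7.47 after light, so the dark arrays were already near or above the WT light arrays. Its change was 1.15 (SE 0.51) with every array and 0.50 (SE 0.37) without replicate 3, which read 5.41, and was not called either way.

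**Figure D3:**
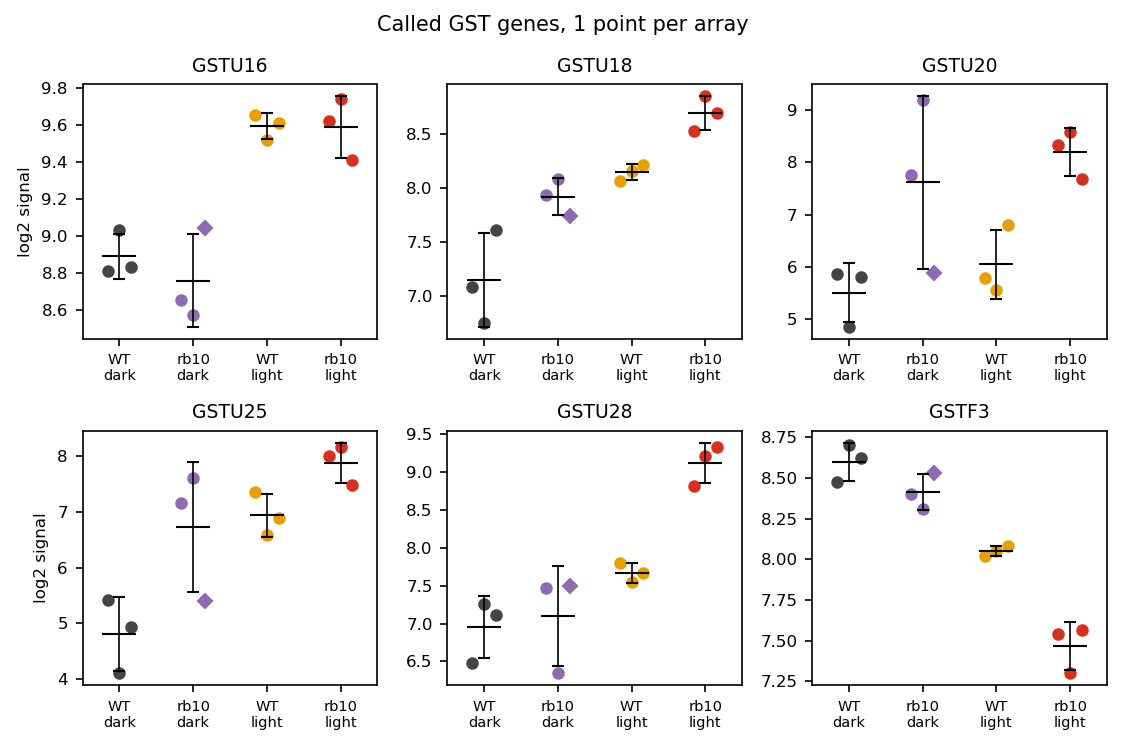
Log2 signal of 6 GST genes that were called in at least 1 comparison, 1 point per array, in the 4 groups, with the mean and SD (n = 3). The diamond is the array labelled rb10 dark replicate 3, and axes do not start at 0. For GSTU20 and GSTU25 the diamond (5.89 and 5.41) lies far below the other rb10 dark arrays.

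Of the UGT genes in rb10, UGT71B1 rose most, from 6.55, 5.96 and 5.87 to 8.63, 9.08 and 8.55, by 2.62 (SE 0.25, adjusted p = 9.87e-05), or 2.49 (SE 0.28) without rb10 dark replicate 3. UGT78D2 read 4.89, 5.004 and 4.83 in rb10 dark and 6.70, 6.72 and 7.28 in rb10 light, a rise of 1.99 (SE 0.28, adjusted p = 0.00156), or 1.96 without that array. Of the UGT73 genes 2 of 10 rose, and 0 without rb10 dark replicate 3. UGT73C6 rose by 1.21 (SE 0.26), UGT76E11, a relative of UGT76E1, by 0.65 (SE 0.14), UGT88A1 by 0.53 (SE 0.10) and UGT73B5 by 0.49 (SE 0.12). Falls were those of UGT85A5 (-1.28, SE 0.32), UGT76E1 (-1.15, SE 0.22), UGT76C2 (-1.12, SE 0.13), UGT71D1 (-0.77, SE 0.15) and UGT72E1 (-0.71, SE 0.15). UGT76C2 adds glucose to cytokinins, and it read 9.07, 9.13 and 9.43 in rb10 dark and 8.11, 7.99 and 8.18 in rb10 light. UGT72E1 acts on the aldehydes that precede lignin. Without rb10 dark replicate 3 the calls of UGT73C6 (1.06), UGT73B5 (0.48) and UGT85A5 (-0.91) were lost. The others were called at 0.64 (UGT76E11), 0.58 (UGT88A1), -1.28 (UGT76E1), -1.01 (UGT76C2), -0.75 (UGT71D1) and -0.60 (UGT72E1). UGT85A5 lost its call in 7 of the 12 fits that left out 1 array, those without rb10 dark replicate 3, rb10 light replicate 1 or 3, any WT dark array or WT light replicate 1 (-1.39 to -0.91, adjusted p = 0.0507 to 0.121). UGT73B5 lost it without any 1 rb10 dark array or rb10 light replicate 1 or 3 (0.45 to 0.52, adjusted p = 0.0655 to 0.109), and UGT73C6 without rb10 dark replicate 3 or rb10 light replicate 1 or 2 (0.98 to 1.14, adjusted p = 0.0511 to 0.0647). UGT76E11 lost it without rb10 dark replicate 1 or rb10 light replicate 2 (0.64 and 0.57), and UGT72E1 without rb10 light replicate 1 or 3 (-0.61 and -0.70). With only the rb10 arrays in the fit, 4 UGT genes were called.

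The genes called in both genotypes moved the same way in each. Of the GST calls 3 were shared (75% of either genotype's calls) and of the UGT calls 6 (54.5% of either), with 0 in opposite directions. Of all tested probe sets 441 were called the same way in both, of 1204 called in WT and 1254 in rb10. Without rb10 dark replicate 3 the shared calls were 2 of 4 and 3 GST calls and 4 of 11 and 8 UGT calls. The light effects in WT and rb10 come from different arrays.

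Whether the light effect itself differed between the genotypes was tested as the difference of the light effects. It was called for 0 of 13 GST and 4 of 51 UGT genes (7.84%), where 2.17% of all tested probe sets were called (0.503% up and 1.67% down). Unadjusted limma p-values under 0.05 numbered 2 of 13 GST and 12 of 51 UGT genes, and 2206 of all 17481 tested probe sets. For UGT73B5 the rise was smaller in rb10 by 1.08 (difference -1.08, SE 0.17, adjusted p = 0.00915). WT went from 8.62 ± 0.11 to 10.18 ± 0.19 and rb10 from 8.59 ± 0.05 to 9.08 ± 0.13 (SD, n = 3), and the dark arrays of the genotypes overlapped. UGT73B3 had a difference of -0.74 (SE 0.15, adjusted p = 0.032). It read 9.62, 9.65 and 9.80 in rb10 dark and 9.81, 9.89 and 9.95 in rb10 light, and its rise of 0.19 there was not called. UGT76C2 fell more in rb10 (difference -0.92, SE 0.18, adjusted p = 0.029), with WT arrays at 9.47, 9.23 and 9.51 in the dark and 9.35, 9.07 and 9.18 after light. UGT88A1 had a difference in the other direction (0.66, SE 0.15, adjusted p = 0.0481).

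UGT73B5 kept its call in all 12 fits that left out 1 array, and the other 3 did not. UGT73B3 and UGT88A1 were each called in 1 of those fits, UGT73B3 without WT dark replicate 2 and UGT88A1 without rb10 dark replicate 3, and otherwise gave adjusted p = 0.0502 to 0.0842 (-0.78 to -0.66) and adjusted p = 0.0639 to 0.119 (0.59 to 0.71). UGT76C2 was called in 5 of them, those without WT dark replicate 3, WT light replicate 2 or any 1 rb10 dark array, and otherwise gave adjusted p = 0.0504 to 0.081 (-0.96 to -0.83). The count of UGT genes was 1 without WT dark replicate 1, WT light replicate 1 or 3 or any rb10 light array, and 2 without WT dark replicate 2 or 3 or WT light replicate 2. Without rb10 dark replicate 3 there were again 4, with UGT73B4 (-0.81, SE 0.17) in place of UGT73B3 (-0.69, SE 0.15), where 2.25% of all tested probe sets were called. UGT73B5 (-1.08), UGT76C2 (-0.81) and UGT88A1 (0.71) were called there too. With equal array medians the split was 0 higher and 4 lower, against 1 and 3.

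**Figure D4:**
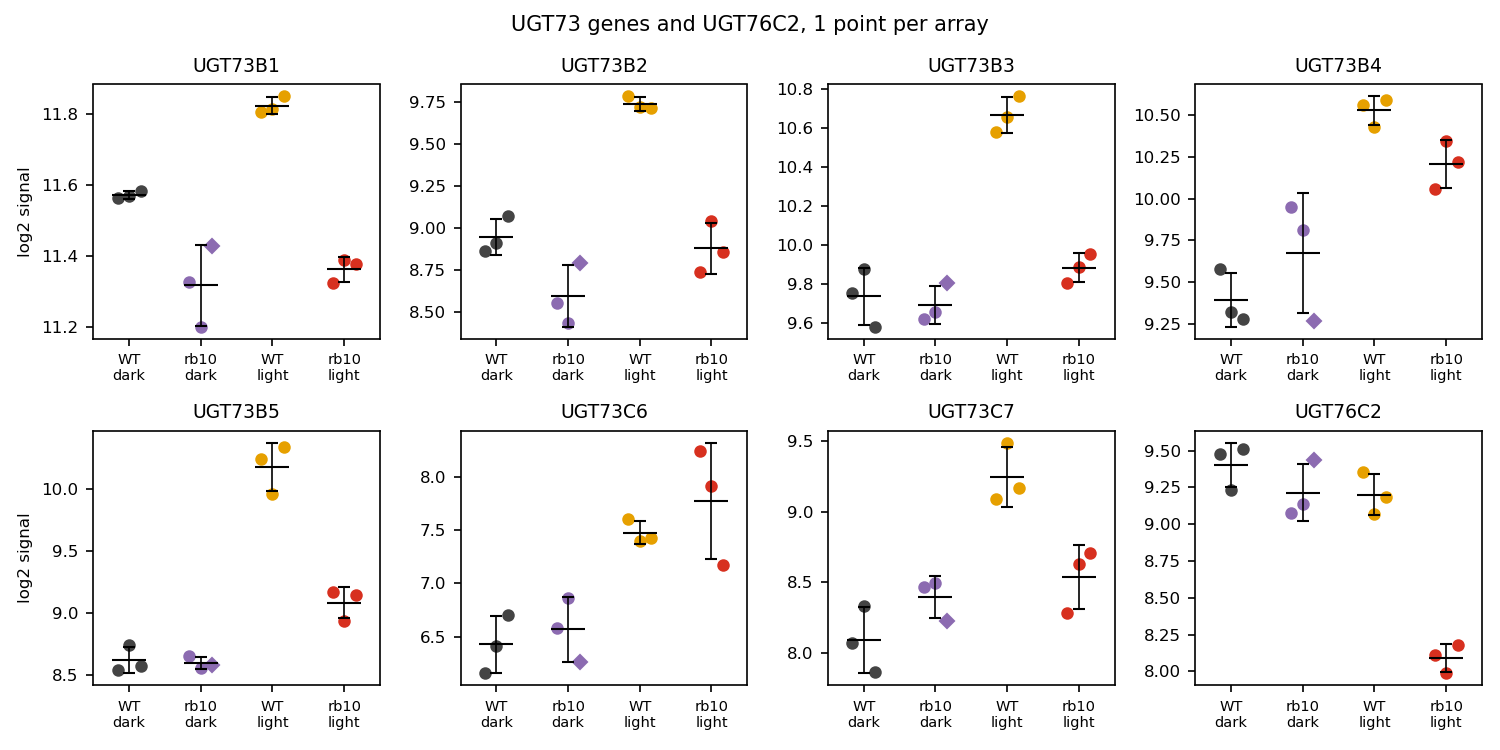
Log2 signal of 7 UGT73 genes and UGT76C2, 1 point per array, in the 4 groups, with the mean and SD (n = 3). The diamond is the array labelled rb10 dark replicate 3, and axes do not start at 0. In WT light UGT73B5 lies at 9.96 to 10.34, above every rb10 light array (8.94 to 9.16), and UGT76C2 is lowest in rb10 light.

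The third comparison set rb10 against WT before any light. When all 12 arrays were used, 0 of 13 GST and 0 of 51 UGT genes were called by limma, where 0.00572% of all tested probe sets were called. An unadjusted limma p under 0.05 was found for 3 GST and 16 UGT genes, and for 2613 of all 17481 tested probe sets. After rb10 dark replicate 3 was left out, 3 GST genes were higher and 0 lower, and 3 UGT genes were higher and 7 lower (23.1% and 19.6%), where 10.1% of all tested probe sets were called (5.68% up and 4.39% down). The array was doubted because of its values in these same data. Leaving out the rb10 dark array most like WT tends by construction to widen the difference between the genotypes. The calls below are therefore not independent of that choice. The values below are from the fit without that array, with those of the fit with every array, in which none was called, beside them.

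GSTU20 was higher in rb10 by 2.97 (SE 0.51), or 2.11 (SE 0.68) with every array. Its protein is known as a partner of FIN219 (JAR1), a jasmonate enzyme that acts in far-red light signalling. It read 5.87, 4.85 and 5.80 in WT dark, 7.76 and 9.19 on rb10 dark replicates 1 and 2, and 5.89 on replicate 3. GSTU25 was higher by 2.57 (SE 0.37), or 1.91 (SE 0.51) with every array, at 7.16 and 7.61 against 5.41, 4.10 and 4.93 in WT, with 5.41 on replicate 3. GSTU18 was higher by 0.86 (SE 0.21), or 0.77 (SE 0.19) with every array. Replicates 1 and 2 lay above every WT dark array for all of these genes, and replicate 3 lay level with the highest WT dark array for GSTU25 and just above it for GSTU20 and GSTU18.

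Of the UGT genes, those higher in rb10 dark were UGT71C1 (0.83, SE 0.14), UGT74F1, which glucosylates salicylic acid (0.55, SE 0.14), and UGT73B4 (0.49, SE 0.13). With every array they were at 0.64, 0.22 and 0.28. Replicate 3 read 5.78 for UGT71C1, above the WT dark arrays, but 5.52 for UGT74F1 and 9.27 for UGT73B4, below every WT dark array. Those lower were led by UGT84A3 (-1.31, SE 0.16), of a group that makes glucose esters of hydroxycinnamic acids, UGT85A5 (-1.23, SE 0.26) and UGT71C2 (-1.07, SE 0.14), which were at -0.87, -0.85 and -0.73 with every array. UGT84A3 read 6.61, 6.09 and 6.29 in WT dark and 5.05 and 5.01 on rb10 dark replicates 1 and 2, but 6.34 on replicate 3. UGT85A5 read 8.52, 8.80 and 8.73 against 7.36 and 7.56, with 8.58 on replicate 3, and for UGT71C2 replicate 3 read 8.29, inside the WT dark values. Smaller differences were those of UGT89B1 (-0.77), UGT76E2 (-0.58), UGT73B2 (-0.45) and UGT87A2 (-0.45), which were at -0.61, -0.37, -0.35 and -0.33 with every array. Replicate 3 read 8.61, 10.24, 8.80 and 12.11 for these genes. Among the 24 genes of both families that differed between the genotypes after light, the array labelled rb10 dark replicate 3 lay nearer the WT dark mean than the mean of the other rb10 dark arrays in 22. The same share over all tested probe sets is not given here. That array also correlated better with the WT dark arrays across all of them, so the count is not shown to be particular to these genes.

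The fourth comparison set rb10 against WT when both had had 1 h of light. Of the 13 GST genes 2 were higher, 1 was lower and 10 were not called (23.1% called), and of the 51 UGT genes 8 were higher, 13 lower and 30 not called (41.2% called). Of all tested probe sets 19.2% were called (9.72% up and 9.47% down), so the GST share was near the background and the UGT share above it. The median difference was 0.18 over the GST genes, -0.17 over the UGT genes and -0.02 over all tested probe sets. This comparison shares its WT light arrays with the first and its rb10 light arrays with the second. Leaving out rb10 dark replicate 3 changes no group mean here, and 3 GST genes and 24 UGT genes were then called, where 23.6% of all tested probe sets were (11.8% in either direction). The UGT count was lowest, 14, without WT light replicate 3.

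GSTU20 was higher in rb10 light, at 8.34, 8.58 and 7.68 against 5.79, 5.56 and 6.80, by 2.15 (SE 0.68, adjusted p = 0.0496). All rb10 arrays lay above all WT arrays. This call was lost in 10 of the 12 fits that left out 1 array, all but those without rb10 dark replicate 2 or 3 (1.90 to 2.53, adjusted p = 0.0546 to 0.14), and with a replicate block, a repeated quantile normalization or every probe set tested (adjusted p = 0.0589 to 0.0757). The SE was 0.68, and 0.46 without rb10 dark replicate 3. GSTU28 was higher by 1.45 (SE 0.30, adjusted p = 0.00801), at 8.82, 9.21 and 9.33 against 7.80, 7.54 and 7.66. GSTF3 was lower by 0.58 in rb10 (-0.58, SE 0.11, adjusted p = 0.00494), at 7.54, 7.30 and 7.57 against 8.02, 8.05 and 8.08. GSTU25 (0.94, 95% interval -0.19 to 2.07) and GSTU18 (0.55, 95% interval 0.12 to 0.97) were not called after light.

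**Figure D5:**
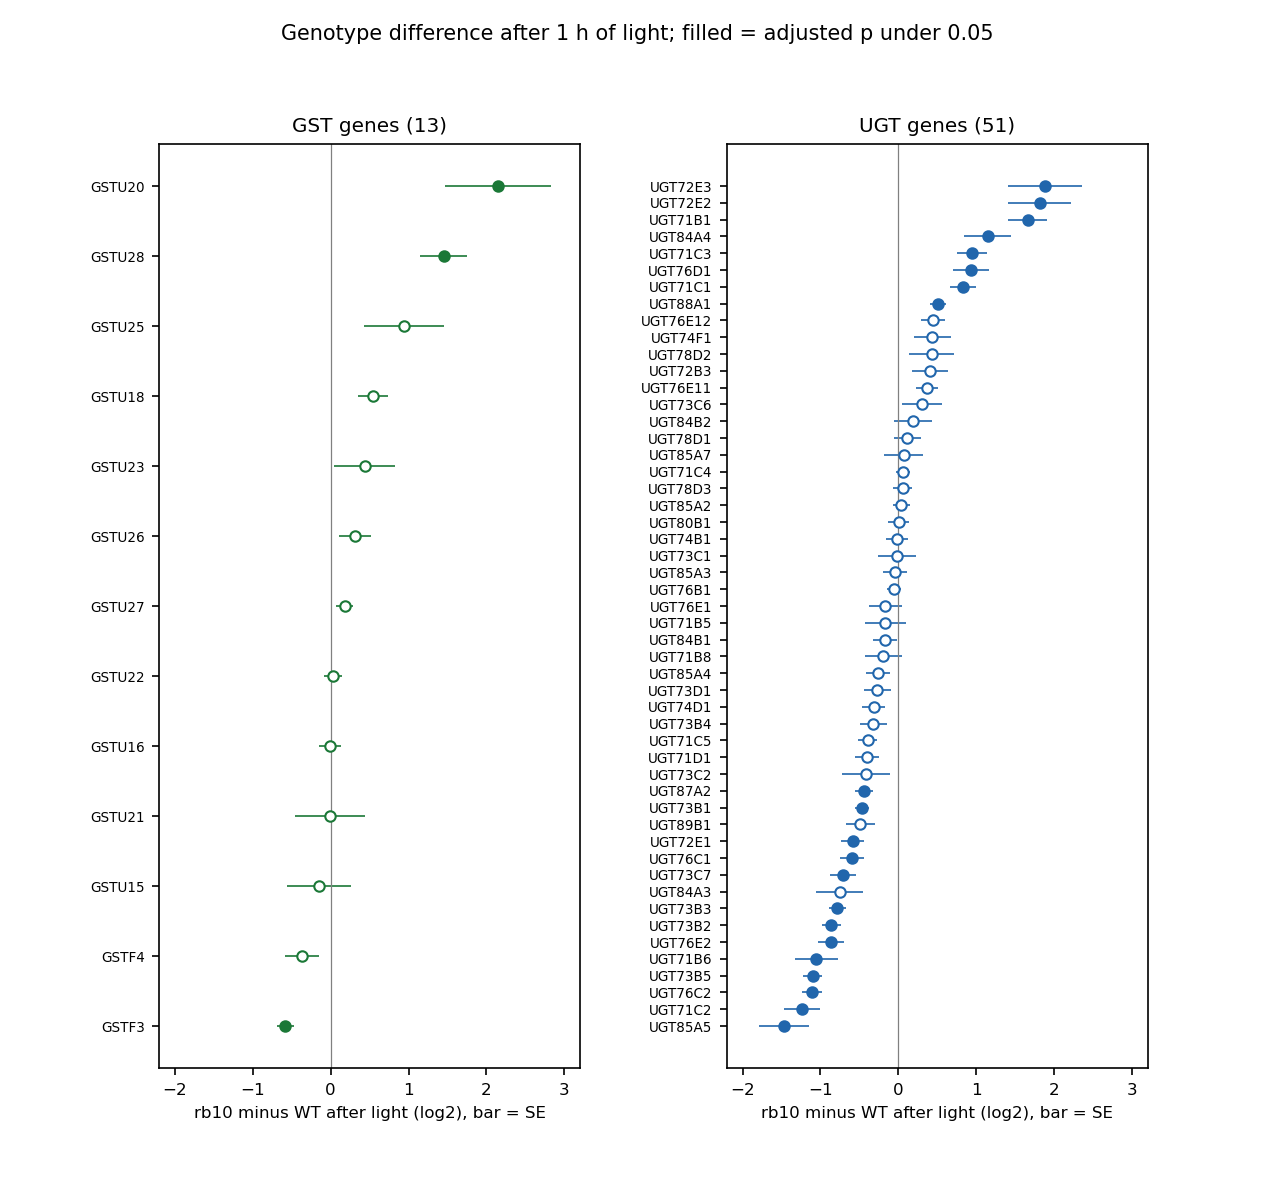
Difference in log2 signal between rb10 and WT after 1 h of light for each of 13 GST genes (left) and 51 UGT genes (right), with the SE as a bar, and filled points where the adjusted p is under 0.05. The GST genes run from GSTF3 (-0.58) to GSTU20 (2.15) and the UGT genes from UGT85A5 (-1.47) to UGT72E3 (1.89), with 13 UGT genes called lower and 8 higher.

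Among the UGT genes of lignin precursors and phenylpropanoids, UGT72E3 and UGT72E2, which glucosylate the monolignols, were the most raised. UGT72E3 read 5.69, 5.11 and 6.30 in rb10 light and 3.98, 4.54 and 2.92 in WT light, a difference of 1.89 (SE 0.48, adjusted p = 0.0191). UGT72E2 read 8.005, 8.07 and 8.23 against 6.60, 6.95 and 5.31, a difference of 1.82 (SE 0.41, adjusted p = 0.011). The rb10 arrays lay above the WT arrays for both. UGT72E3 had a low signal, its mean over 12 arrays at percentile 22.2 of all tested probe sets. UGT72E1, which prefers the aldehydes, differed the other way (-0.58, SE 0.15). UGT84A4, also low in signal (percentile 16.9), was higher by 1.15 (SE 0.30). UGT84A3, its neighbour, differed by -0.75 (SE 0.30). UGT84A3 was called without rb10 dark replicate 3 and with only the light groups in the fit, with adjusted p = 0.00407 to 0.232 over the alternatives.

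Of the enzymes that act on flavonoids, UGT78D2 differed after light by 0.43 (95% interval -0.20 to 1.06), UGT78D1 by 0.11 and UGT73C6 by 0.30, with none called, while UGT73B2 was lower (difference -0.86, SE 0.12). In all, 5 of the 10 UGT73 genes were lower in rb10 after light and 0 higher (median -0.44), where 9.47% of all tested probe sets were called lower. This group was picked out after the values were seen, its rise in WT light among them. The same WT light arrays enter this comparison, so the count is not independent support. UGT73B5 differed by -1.10 (SE 0.12, adjusted p = 0.000265), UGT73B3 by -0.78 (SE 0.11), UGT73C7 by -0.71 (SE 0.17) and UGT73B1 by -0.46 (SE 0.09). UGT73B1 read 11.81, 11.82 and 11.85 in WT light and 11.32, 11.39 and 11.38 in rb10 light, groups that were each within 0.1 and did not overlap.

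Of the hormone-related UGT genes, UGT76C2 (-1.11, SE 0.13, adjusted p = 0.000367) and UGT76C1 (-0.59, SE 0.16), adjacent genes whose enzymes act on cytokinins, were both lower in rb10 after light. They need not be all the measured genes with that acceptor. UGT71B6, an abscisic acid glucosyltransferase, was lower (difference -1.05, SE 0.27, adjusted p = 0.0212), and its second probe set gave -1.18. UGT71C5, which makes the glucose ester of abscisic acid, differed by -0.39 (SE 0.13). It just missed a call in the main limma fit (adjusted p = 0.0502). Of 20 alternatives 4 called UGT71C5 and 16 did not. It was called without rb10 dark replicate 3. With every array it was called under a repeated quantile normalization (-0.49), equal array medians (-0.54) and a filter on the lowest 25% by mean (-0.39). Of the enzymes that act on salicylic acid or its derivatives, UGT76D1 was higher by 0.93 (SE 0.23), UGT74F1 differed by 0.43 (SE 0.24) and UGT76B1 by -0.05 (SE 0.10), the last pair not called with every array and UGT74F1 called without rb10 dark replicate 3. UGT71C3, which acts on methyl salicylate, was higher by 0.95 (SE 0.20), at 8.15, 7.77 and 8.12 against 7.14, 7.07 and 6.99. UGT76E2, of the jasmonate-related group, was lower (difference -0.86, SE 0.16), while UGT76E1 (-0.17), UGT76E11 (0.37) and UGT76E12 (0.45) were not called. The auxin enzymes UGT84B1 (-0.17) and UGT74D1 (-0.32) were not called, and UGT84B1 read under 3 on every array.

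UGT85A5, UGT71C2 and UGT71B1, for which no role is given here, were among the genes that differed most. UGT85A5 read 6.77, 6.93 and 5.96 in rb10 light and 7.96, 8.29 and 7.81 in WT light, a difference of -1.47 (SE 0.32, adjusted p = 0.00974). UGT71C2 differed by -1.24 (SE 0.24, adjusted p = 0.00519), at 6.93, 7.18 and 7.05 against 8.47, 8.08 and 8.31. UGT71B1 was higher by 1.66 (SE 0.25, adjusted p = 0.00151), at 8.63, 9.08 and 8.55 against 7.36, 7.23 and 6.69. UGT71C1 (0.83, SE 0.17) and UGT88A1 (0.51, SE 0.10) were also higher, UGT88A1 not with equal array medians (0.36, adjusted p = 0.0564). UGT87A2 was lower (-0.44, SE 0.11).

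Leaving out 1 array ended 8 of the 21 UGT calls in at least 1 fit. UGT71B6 was lost without WT light replicate 1 or 3 or rb10 light replicate 2 or 3 (-1.09 to -0.78, adjusted p = 0.0518 to 0.0717), UGT72E1 without WT light replicate 2 or 3 or rb10 light replicate 1 or 3 (-0.57 to -0.48, adjusted p = 0.0571 to 0.0744), and UGT84A4 without the same 4 arrays (0.98 to 1.16, adjusted p = 0.0538 to 0.0782). UGT72E3 was lost without WT light replicate 3 or rb10 light replicate 1 or 3 (1.44 to 1.90, adjusted p = 0.0511 to 0.0695), UGT76C1 without WT light replicate 1 or 3 or rb10 light replicate 1 (-0.60 to -0.44, adjusted p = 0.0579 to 0.0787), and UGT76D1 without WT light replicate 3 or rb10 light replicate 2 (0.82 and 0.86). UGT73C7 was lost without WT light replicate 2 or rb10 light replicate 1 (-0.59 and -0.58), and UGT87A2 without any WT light array or rb10 light replicate 1 or 2 (-0.46 to -0.40, adjusted p = 0.0504 to 0.0728).

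Many of the genes lie side by side in the genome, and neighbours often differed. GSTU20, GSTU21, GSTU22 and GSTU23 are adjacent. After light GSTU20 differed between the genotypes by 2.15, while GSTU21 (-0.01), GSTU22 (0.03) and GSTU23 (0.44) were not called. GSTU25 and GSTU26 are adjacent, and in WT light changed GSTU25 by 2.13 and GSTU26 by -0.12 (95% interval -0.58 to 0.34). In the row of UGT85A2, UGT85A3, UGT85A5 and UGT85A7 only UGT85A5 was called between the genotypes after light, and the other 3 differed by -0.04 to 0.07. In UGT71C1 and UGT71C2, also adjacent, the calls after light were opposite in sign (0.83 and -1.24). By contrast, all of the adjacent UGT73B1, UGT73B2 and UGT73B3 were lower in rb10 after light, as were both of UGT76C1 and UGT76C2. Differences between neighbours were not themselves tested. Neighbours can be close copies, probe sequences were not used here, and signal from one copy on another's probes was not tested.

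A second probe set was available for 5 UGT genes, and the one with the higher mean stood for the gene. For UGT71B6 the second was called in WT light (0.67, adjusted p = 0.0495), where the first was not (0.99, adjusted p = 0.056), and neither was called without rb10 dark replicate 3. For UGT73C6 the second read a mean of 3.57 and was not called for light in either genotype (0.24 in WT and 0.59 in rb10). UGT76E12 differed between the genotypes after light by 0.45 on the first and -0.44 on the second, neither called with every array. Without rb10 dark replicate 3 that second probe set was called after light and also in the dark (-0.83). For UGT85A4 the second was called in rb10 light (-0.47, adjusted p = 0.0217) and the first was not (-0.50, adjusted p = 0.0827). UGT74D1 was not called on either.

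Few genes of the related pathways were measured, so these lists say little of the pathways. Of 19 genes of glutathione synthesis, turnover and transport 2 were measured, and GR1, a glutathione reductase, rose in both genotypes, by 0.69 (SE 0.09) in WT (adjusted p = 0.000857) and 0.69 (SE 0.09) in rb10, or 0.76 without rb10 dark replicate 3. It read 11.65, 11.61 and 11.59 in WT dark and 12.35, 12.30 and 12.29 in WT light. GR (AT3G54660), the organellar reductase, was not called in any comparison (0.13 in WT light). Of 13 genes of other glutathione transferase classes 3 were measured and none was called in the limma fit over all 12 arrays. GSTL3, of the lambda class, was higher in rb10 after light without rb10 dark replicate 3 (0.28, SE 0.08). With every array it was called there under a repeated quantile normalization (0.30), a filter on the lowest 25% by mean, and a trended and robust prior. Of 25 phenylpropanoid and flavonoid genes 4 were measured, at 3.33 to 5.62 on every array, and none was called in any comparison. CHIL, the chalcone isomerase-like protein, changed by 0.69 (SE 0.36) in WT light and 0.98 (SE 0.36) in rb10 light, or 1.16 without rb10 dark replicate 3. Of 15 xenobiotic and oxylipin genes AER, an alkenal reductase, was measured, rose in WT (0.37, SE 0.09) and was lower in rb10 after light (-0.30, SE 0.09), and each call was lost in 10 of 12 fits that left out 1 array (0.31 to 0.41, adjusted p = 0.0552 to 0.146, and -0.34 to -0.28, adjusted p = 0.0549 to 0.13).

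Of 12 genes on the oxidative stress list both that were measured rose in WT light and had smaller light effects in rb10. STZ, a zinc finger protein of stress responses, rose by 3.15 in WT and 1.32 in rb10 (difference -1.83, SE 0.20). AT3G28580, a marker of singlet oxygen, rose by 2.52 in WT and changed by -0.48 in rb10 (difference -3.002, SE 0.42). Without rb10 dark replicate 3 these differences were -1.86 and -2.70, and both were called. Of 8 auxin and salicylate conjugation genes 4 were measured. GH3.3, an auxin-conjugating enzyme, fell in WT (-1.08, SE 0.16) and in rb10 (-1.36 (SE 0.16), or -1.28 without rb10 dark replicate 3), and after light GH3.1 was higher (0.75, SE 0.19) and GH3.5 (WES1) lower (-0.44, SE 0.11) in rb10. GH3.1 lost its call without WT light replicate 2 or rb10 light replicate 1 or 2 (0.58 to 0.73), and GH3.5 without rb10 light replicate 1 or 2 (-0.40 and -0.39). The fall of GH3.5 with light in rb10 (-0.42, SE 0.11) was called in 1 of the 12 fits that left out 1 array, that without rb10 light replicate 3. None of the 7 indole glucosinolate and camalexin genes was measured.

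Set side by side between the genotypes after light, 3 of 13 GST and 21 of 51 UGT genes were called, where 19.2% of all tested probe sets were. When a change of at least 1 was required as well, 2 and 9 were called, and the share of all tested probe sets at that threshold is not given here. For light the shares were 30.8% for GST and 21.6% for UGT genes in WT and in rb10, but 23.1% and 15.7% in rb10 without rb10 dark replicate 3. The genes of the GST family that were called and belong to the tau class were all higher, with light or in rb10, and the 1 called gene of the phi class, GSTF3, was lower in each comparison that called it. Only 2 genes of the phi class were measured, against 11 of the tau class. The other, GSTF4, was not called in any comparison, so the values do not describe the phi class. The UGT calls went both ways. The precision differed too: the median SE of a 2-group difference was 0.22 over the GST genes and 0.17 over the UGT genes. The median size of the genotype difference after light, without regard to sign, was 0.37 for GST, 0.43 for UGT genes and 0.24 for all tested probe sets. The same median for light was 0.54 for GST, 0.29 for UGT genes and 0.18 for all in WT, and 0.58, 0.27 and 0.18 in rb10. Without rb10 dark replicate 3 the values in rb10 were 0.28, 0.33 and 0.18. The difference between the families was not tested.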

How the data were processed

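Each of 38408 probe sets carries the log2 signal that the authors deposited for every array, and no further normalization was applied. RMA and GCRMA stand in the submitters' processing notes, without a version or a statement of which one was used. Genes were taken from the array's annotation and updated through gene identifiers in a table of the TAIR10.1 assembly, used for names and neighbours only, since the build behind the array values is not given in the sources used here. Of the probe sets, 17481 with at least 1 gene were tested. Of several probe sets of a gene, the one with the highest mean over 12 arrays stood for it.

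The test was limma 3.58.1 (R 4.3.3): a linear model of the 4 groups, 5 contrasts, and moderated variances (prior degrees of freedom 2.79, residual 8). A replicate block was tried as an alternative: deviations of same-numbered arrays correlated at -0.04 to 0.07, none over 0.1, so the numbers were not taken as pairs. Other alternatives were other scalings, filters, priors and groups in the fit, a 2-fold change as well, and leaving out each array. A check of the test on simulated data was also run, and since its outcome is not reported here, no result rests on it.

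The genes named were the members called in a comparison, up to 8 rises and 8 falls per family, UGT78D2, the 3 highest and 3 lowest members of each family by mean, called genes of the lists of related pathways, and RAPTOR1. Those named beyond this, such as neighbours, relatives by number or by acceptor, and the second probe sets, were chosen after their values were seen. The members and lists were chosen with earlier results of these data known. Figures were drawn with matplotlib 3.10.9.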

Additional observations from a re-analysis of the deposited data

Results flagged for a closer look

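For 4 UGT genes the light effect differed between WT and rb10 by the test of the difference itself (limma, every array). The difference, rb10 minus WT, was -1.076 for UGT73B5, -0.9193 for UGT76C2, -0.7415 for UGT73B3 and 0.6552 for UGT88A1. No GST gene was among them. Only UGT73B5 kept its call in all 12 fits that left out 1 array. UGT73B3 and UGT88A1 each lost theirs in 11 of those fits and UGT76C2 in 7. Groups of 3 arrays are too small for a test of single outlying arrays.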

How the results depend on the processing

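The precision rests on 3 arrays a group, and signal over background was not used here, so genes near background, such as those with the lowest signals, were not marked. In the dark, dropping rb10 dark replicate 3 raised the calls from 0 to 3 GST and from 0 to 10 UGT genes. Every other setting tried gave 0 of both. Over the 12 fits that left out 1 array, calls ranged from 2 to 4 GST and 7 to 12 UGT genes for light in WT, from 3 to 4 and 8 to 11 for light in rb10, from 0 to 3 and 0 to 10 for genotype in the dark, from 2 to 3 and 14 to 24 for genotype after light, and from 0 to 0 and 1 to 4 for the difference of light effects. With a change of at least 1 in log2 required as well, the calls were 1 GST and 7 UGT genes for light in WT, 1 and 6 for light in rb10, 2 and 9 after light and 0 and 1 for the difference of light effects. That setting calls fewer genes by its construction. Shares of all tested probe sets are given here only for adjusted p under 0.05 with every array and without rb10 dark replicate 3. Counts under the other settings therefore cannot be set against the array as a whole. With only the groups of the comparison in the fit, 4 UGT genes were called for light in rb10 and 5 GST genes for genotype after light, and the cause was not tested. With a filter on the lowest 25% by mean, and with a trended and robust prior, the difference of light effects gave 6 UGT genes each. With a replicate block, calls were 4 GST and 12 UGT genes for light in WT, 3 and 9 for light in rb10, 0 and 0 for genotype in the dark, 2 and 22 after light and 0 and 3 for the difference. Under the block GSTU18, UGT73B5 and UGT85A5 were no longer called for light in rb10, GSTU20 was not called after light, and UGT73B3 and UGT88A1 were not called for the difference. Equal array medians moved the median genotype difference after light over all tested probe sets by -0.15, and the UGT split was then 7 higher and 17 lower, against 8 and 13. For UGT78D2 the genotype difference in the dark, 0.04 with every array and not called, turned to -0.037 with equal array medians, ranged from -0.29 (without WT dark replicate 2) to 0.38 (without WT dark replicate 1) when 1 array was left out, with -0.01 without rb10 dark replicate 2, and the cause was not tested.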
